A study of Saccharomyces cerevisiae with 45 samples.

Results

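The 54 genes described here encode ribosome biogenesis factors of budding yeast, the proteins that build ribosomes in the nucleolus but are not part of the finished particle. They were taken by name from the table of 6723 genes and were divided by role into 8 proteins of the nucleolar small nucleolar ribonucleoproteins (snoRNPs, with the nucleolin-like protein NSR1), 14 RNA helicases, 14 factors of the small subunit and 18 factors of the large subunit. The choice was made with earlier results of these data known, so counts of members beside all genes describe a chosen set. All 54 had enough reads to be tested in every comparison. The 45 libraries came from Saccharomyces cerevisiae strain SK1, with 3 libraries for each of 15 conditions. The rapamycin group was purified spores suspended in the rich medium YPD with 2 μM rapamycin, the DMSO group was purified spores in YPD with the same volume of the solvent DMSO, and the remaining group was purified spores that had not been transferred. The rapamycin and DMSO cultures were sampled on 7 occasions, first at 0 min and then after 10, 30, 60, 120, 240 or 360 min, and the labels name no allele beyond the strain in any group. Replicates are lettered A, B and C, and since no source used here says what separated them, the p-values measure only the spread between these samples.

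In the nucleolus RNA polymerase I copies a long precursor that holds most of the ribosomal RNA. Box C/D snoRNPs methylate it, box H/ACA snoRNPs convert uridines to pseudouridines, the small subunit processome folds and cleaves its first part, and a chain of large subunit particles matures the rest, with DEAD-box and DEAH-box helicases unwinding RNA along the way. Rapamycin bound to the protein Fpr1 inhibits TORC1, a kinase complex that in growing yeast keeps the transcription of these genes high. It does so in part through Sch9, which phosphorylates the repressors Dot6, Tod6 and Stb3. Dot6 and Tod6 bind the PAC element and Stb3 binds the RRPE element, which lie upstream of many of these genes.

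Depth was the number of reads counted on genes, which ranged from 7736397 to 14522407 per library with a median of 10942773. The lowest count of any member in any library was 61 reads, for DHR2 in purified spores. TMM factors ran from 0.711 to 1.32. All 54 genes were unique at the read length, because no window of that length in their coding sequence occurred at another place in the R64 reference genome. Introns are annotated in DBP2 and NOG2, and the annotated small RNA gene inside the NOG2 intron lies on the same strand. Coding lengths ran from 177 bases for NOP10 to 7482 bases for UTP20, with a median of 1567.5. Markers of late sporulation (13 genes) summed to between 10300 and 13900 CPM (a gene's reads relative to the reads of its library) in purified spores, and no gene of that list or of the list of 12 dividing-cell genes was at 0 throughout any group. Between replicates, chi-square per degree of freedom over all genes was 185 and 167 for replicate A of rapamycin at 360 min against B and C. It was 5.39 to 71.9 for the other 43 pairs, so that this library stands apart. Counts of members in rapamycin at 360 min are also given without it, and of single genes only DHR2 and DBP2 against DMSO. Other values of rapamycin at 360 min include it. In a bulk library, fewer cells of a type and less RNA per cell cannot be told apart.

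Promoters were examined first, since the members were chosen by role and not by sequence, though with earlier results of these data known. The window ran from 250 bases before the start codon to 50 bases after its first base in the R64 reference genome of RefSeq, and exact matches were counted on both strands. The PAC core was searched as GATGAG and its longer form as GCGATGAG, which holds the core. The RRPE core was searched as AAAATTTT and its longer form as GAAAAATTT, which can overlap the core. The PAC core occurred in 54 of 54 members, which is 100% of them, against 20.4% of all 6001 promoters. The longer PAC form occurred in 35 members (64.8%) against 3.9% of all promoters. The RRPE core occurred in 45 members (83.3%) against 9% of all promoters, and the longer RRPE form in 27 members (50%) against 6.1%. Both cores were present in 45 members (83.3%) and in 4.4% of all promoters. These shares are descriptions of short letter strings and were not tested.

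The matches were spread unevenly over the role groups, which was not tested. The longer PAC form occurred in 1 of 8 snoRNP genes, 10 of 14 helicase genes, 9 of 14 small subunit genes and 15 of 18 large subunit genes. The longer RRPE form occurred in 7 of 8 snoRNP genes, 6 of 14 helicase genes, 5 of 14 small subunit genes and 9 of 18 large subunit genes. Neither RRPE form was found in NOP10, MAK5, DHR2, RRP9, IMP3, NOP12 and NOP16. The PAC core was found once in 29 members, at 2 places in 18, at 3 places in 6 and at 4 places in DBP9 alone.

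Stretches of 10 promoters are shown because they belong to the members whose expression is described in full, and because they show how the matches are arranged. Capitals mark every match to the 4 strings, a CTCATC or CTCATCGC being a PAC match on the other strand. All are written 5′ to 3′ on the strand of the gene, from the R64 reference genome, and the SK1 sequence was not read.
NSR1: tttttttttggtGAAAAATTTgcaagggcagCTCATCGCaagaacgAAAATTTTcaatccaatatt
NOP58: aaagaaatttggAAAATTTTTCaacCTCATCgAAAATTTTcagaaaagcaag
NOP1: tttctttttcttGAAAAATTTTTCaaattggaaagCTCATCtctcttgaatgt
NOP10: tttcaagttatgCTCATCactcttttatta
DHR2: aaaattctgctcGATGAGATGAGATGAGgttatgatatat
RRP3: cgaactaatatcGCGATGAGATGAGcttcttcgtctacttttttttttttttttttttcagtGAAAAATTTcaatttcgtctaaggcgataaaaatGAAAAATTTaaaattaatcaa
UTP4: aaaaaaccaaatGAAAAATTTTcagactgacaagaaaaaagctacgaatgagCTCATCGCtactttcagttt
UTP20: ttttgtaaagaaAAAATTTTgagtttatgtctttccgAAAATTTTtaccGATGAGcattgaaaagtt
NOG2: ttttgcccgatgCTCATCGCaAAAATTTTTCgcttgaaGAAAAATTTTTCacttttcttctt
NOP16: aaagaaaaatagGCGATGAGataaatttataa

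On the plus strand these are chrIV:427125-427177 for NOP1 (YDL014W), chrVIII:241539-241568 for NOP10 (YHR072W-A), chrXI:288757-288796 for DHR2 (YKL078W), chrII:227415-227481 for UTP20 (YBL004W) and chrV:156684-156715 for NOP16 (YER002W). On the minus strand they are chrVII:807809-807874 for NSR1 (YGR159C), chrXV:898456-898507 for NOP58 (YOR310C), chrVIII:229141-229257 for RRP3 (YHR065C), chrIV:1116739-1116810 for UTP4 (YDR324C) and chrXIV:723244-723305 for NOG2 (YNR053C). All lie upstream of the coding sequence except the stretch of UTP4, whose only PAC match lies 6 to 11 bases into the gene, counting the A of the start codon as 1. NSR1, NOP58 and UTP20 hold PAC between or beside RRPE matches. DHR2 has 3 overlapping PAC cores in a row and no RRPE match, and NOP10 and NOP16 each have 1 PAC match and no RRPE match.

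**Figure D1:**
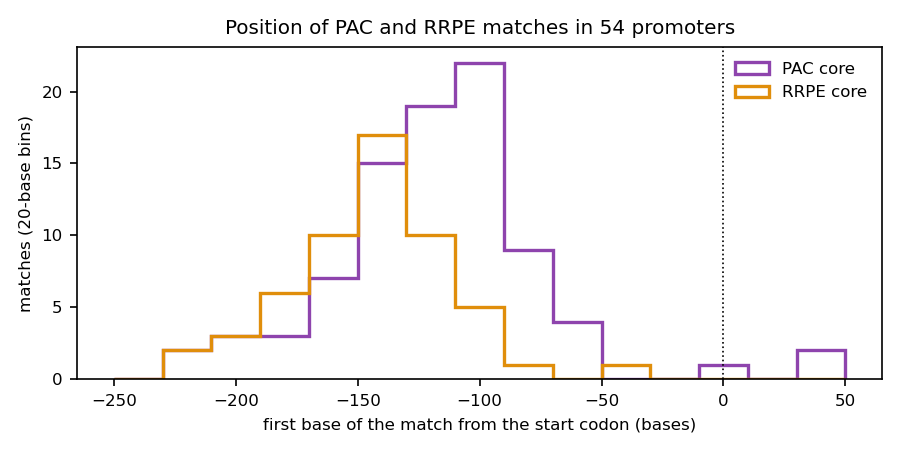
Number of PAC core and RRPE core matches in the promoters of the 54 members (vertical axis, bins of 20 bases) by the position of the first base from the start codon (horizontal axis, bases, dotted line at the start codon). The 87 PAC core matches have a median position of -119 and the 55 RRPE core matches one of -141, so that the RRPE distribution sits farther upstream.

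Matches kept to a narrow band of the promoter. The first base of the PAC core lay at a median of -119 from the start codon, with quartiles at -142.5 and -100, and the RRPE core at a median of -141, with quartiles at -163.5 and -122. Of the other 91 genes on a wider list of ribosome biogenesis genes that have a promoter in the same set, 78 (85.7%) held the PAC core and 65 (71.4%) the RRPE core.

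The first question was how far transcripts of ribosome assembly had accumulated in each culture after the transfer into nutrients. In rapamycin the members together took 0.554%, 1.37% and 2.88% of the counted reads at 0, 10 and 30 min, 1.73% ± 0.451 at 60 min (SD), and 1.74%, 2.61% and 1.48% at the 3 later times. In DMSO they took 0.537% ± 0.0197 at 0 min, 1.39%, 3.02%, 3.82% and 4.08% ± 0.0394 at 10, 30, 60 and 120 min, and 2.14% and 1.95% at the last times. In purified spores the share was 0.56% ± 0.0274 (n = 3 libraries for every value). The share increased in both cultures up to 30 min, and went on increasing to 120 min in DMSO only.

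**Figure D2:**
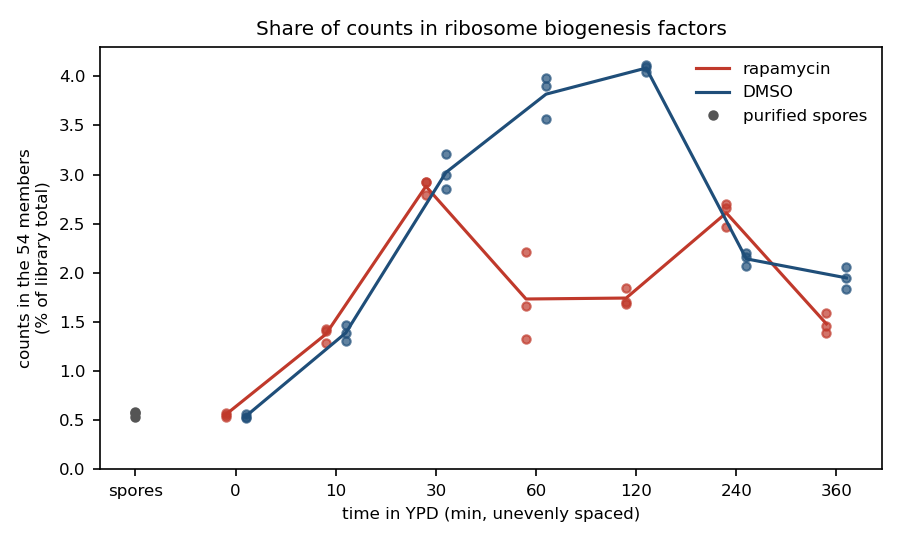
Share of counted reads in the 54 members (vertical axis, % of the library total) by time in YPD (horizontal axis, min, unevenly spaced), with 1 point per library and lines through the means of rapamycin (red) and DMSO (blue) and purified spores in grey. The rapamycin and DMSO libraries lie together up to 30 min and separate at 60 and 120 min (1.73% and 1.74% in rapamycin against 3.82% and 4.08% in DMSO). They differ less later, with every rapamycin library above every DMSO library at 240 min (2.61% against 2.14%) and below at 360 min (1.48% against 1.95%).

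Changes were tested per gene with edgeR's quasi-likelihood test on the libraries of the conditions compared, with Benjamini-Hochberg adjustment over all genes, and a gene was called at an adjusted p under 0.05 and a change of at least 2-fold. In DMSO against purified spores, 0 members were called at 0 min by edgeR (0% of all genes) or by DESeq2. At an unadjusted p under 0.05 by edgeR there were 8 members, against 16.5% of all genes. At 10 min 25 members rose, against 15.4% of all genes tested, at 30 min 48 rose (24.3% of all genes), and at 60 min all 54 rose (28.5% of all genes). All 54 rose again at 120 min (31% of all genes), as did 48 at 240 min (30.1%) and 45 at 360 min (29.4%). No member was called lower at any of these times, the share of all genes called lower being 7.37% at 10 min, 20% at 30 min, 26.8% at 60 min, and 30.8%, 29.9% and 28.6% at the later times. The median log2 fold changes of the members at the 6 times from 10 to 360 min were 0.95, 2.19, 2.88, 3.18, 2.26 and 1.85, in order of time, while that of all genes tested lay between -0.03 and 0.04. With library size alone in place of TMM, 38 members were called at 10 min and the median of all genes there was 0.37 instead of 0.

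Of the role groups, the snoRNP genes had the largest median change. At 60 min the median log2 fold change of DMSO over spores was 4.81 for the 8 snoRNP genes, 3.13 for the helicases, 2.56 for the small subunit factors and 2.99 for the large subunit factors. By 10 min 5 of 8 snoRNP genes, 8 of 14 helicases, 4 of 14 small subunit factors and 8 of 18 large subunit factors had risen. Levels can be compared between genes only per kilobase of coding sequence. On that scale the median member stood at 437 CPM per kb in DMSO at 60 min and 52.8 in purified spores. The highest in DMSO at 60 min were NOP10 (2237 CPM per kb), GAR1 (1906) and NOP1 (1865), and the lowest was DHR2 (77.7).

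NOP1 is the methyltransferase of box C/D snoRNPs, known as fibrillarin in animals, and NOP58 is a core protein of the same particles. NOP1 had 1859, 1824 and 1824 CPM in DMSO at 60 min, against 36.7, 44.7 and 42.7 CPM in purified spores, a log2 fold change of 5.48 ± 0.14 (SE; adjusted p = 6.96e-12 by edgeR). The 3 DMSO libraries lie close together and far above all 3 spore libraries. NOP58 had 1037, 1003 and 1045 CPM in DMSO at 60 min, against 24.02, 29.2 and 24.9 CPM in purified spores, and rose by 5.32 ± 0.12 on the log2 scale, as all such changes are given. NSR1, a nucleolin-like protein needed for precursor processing, had 2171, 2338 and 2335 CPM in DMSO at 60 min, against 60.1, 71.7 and 70.2 CPM in purified spores, and rose by 5.10 ± 0.14. These had the 3 largest changes over spores at that time.

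The box H/ACA proteins were uneven. GAR1 (YHR089C) had 1158, 1136 and 1240 CPM in DMSO at 60 min, against 51.8, 46.2 and 55.1 CPM in purified spores, and rose by 4.54 ± 0.12. NOP10, the smallest protein of that particle, had 393.9, 356 and 438.2 CPM in DMSO at 60 min, against 103.6, 75.9 and 82.9 CPM in purified spores, and rose by 2.19 ± 0.12. NOP10 was already the member with the highest level in purified spores, at 494 CPM per kb.

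Among the helicases the range was widest. DHR2, a DEAH-box helicase of small subunit maturation, had 161, 183.9 and 170.1 CPM in DMSO at 60 min, against 8.20, 7.92 and 7.403 CPM in purified spores, a log2 fold change of 4.47 ± 0.11 (adjusted p = 6.79e-12). It had the lowest level per kilobase of all members in purified spores (3.55 CPM per kb). ECM16 (YMR128W), also known as Dhr1, is the DEAH-box helicase that releases the U3 snoRNA, and it had 842.8, 854.9 and 771.1 CPM in DMSO at 60 min, against 402.5, 325.8 and 346 CPM in purified spores. Its change of 1.21 ± 0.11 was the smallest of the 54, followed by NOP16 with 1.32 ± 0.09 and DBP10 with 1.35 ± 0.10. DBP10 (YDL031W), a DEAD-box helicase of the large subunit pathway, had 1051, 1030 and 973.7 CPM in DMSO at 60 min, against 408.1, 382.9 and 419.2 CPM in purified spores. ECM16 and DBP10 thus had many reads in spores and changed little, while DHR2 had few and changed much. The CPM of ECM16 and DBP10 are not divided by their coding lengths, which are 3804 and 2988 bases.

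A few members moved the other way at 10 min, although by less than 2-fold. UTP20, a very large protein of the small subunit processome, had 130.5, 123.1 and 103.8 CPM in DMSO at 10 min, against 234.9, 222.3 and 215.6 CPM in purified spores, a log2 fold change of -0.85 ± 0.09 (adjusted p = 7.11e-06). The groups do not overlap, with every DMSO library below every spore library. NOP14 (YDL148C), a processome factor, stood at -0.49 ± 0.07 and ECM16 at -0.33 ± 0.09, both also with an adjusted p under 0.05. With library size alone these values were -0.49 for UTP20, -0.13 for NOP14 and 0.03 for ECM16, so that the sign of ECM16 turned. By 60 min UTP20 had 861.6, 694 and 688.9 CPM in DMSO, against the spore values above, and had risen by 1.75 ± 0.11.

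In rapamycin against purified spores, 0 members were called at 0 min by edgeR (0.0522% of all genes called higher) or by DESeq2. At an unadjusted p under 0.05 by edgeR there were 4 members, against 9.64% of all genes. At 10 min 25 members rose (15.3% of all genes) and at 30 min 48 (23.6%). The count was 37 at both 60 min (23.5%) and 120 min (24.5%), then 49 at 240 min (28.9%) and 36 at 360 min (28.7%), which was 36 also without replicate A of rapamycin. Again 0 members were called lower, against 7.61%, 20.1% and 19.9% of all genes at 10, 30 and 60 min and 21.2%, 25.2% and 25.9% at the later times. At 60 min all 8 snoRNP genes, 9 of 14 helicases, 7 of 14 small subunit factors and 13 of 18 large subunit factors were above spores by this rule. These comparisons use the same spore libraries as those of DMSO, so their counts are given side by side only.

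The effect of rapamycin itself was read against DMSO at the same time. At 0, 10 and 30 min 0 members were called lower by edgeR (0% of all genes at each of these times) or by DESeq2. At an unadjusted p under 0.05 by edgeR there were 0, 1 and 1 members, against 0.382%, 1.71% and 2.49% of all genes. Same-lettered libraries deviated together at these times, which this fit did not use. A fit with the letter as a block also called 0 lower at each of them. The median log2 fold change of the members was 0.02, -0.02 and -0.06 at these times. One gene outside the set, 0.0172% of all genes, was called higher at 30 min. At 60 min 52 of 54 members fell, against 8.82% of all genes tested, and the members' median was -1.47, against 0.04 for all genes. All 54 had an adjusted p under 0.05 with lower levels (29.2% of all genes) and rapamycin libraries below all DMSO libraries, which do not overlap for 69.1% of all genes either. At 120 min 53 of 54 fell (15.6% of all genes), with a median of -1.77 against 0.03 for all genes, and the libraries of all 54 did not overlap (83.2% of all genes). No member was called higher at 60 min (10.4% of all genes) or at 120 min (21.3%). Under library size alone the median of all genes at 60 min moved up by 0.31 and at 120 min by 0.51, and 38 and 40 members were called at these times.

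**Figure D3:**
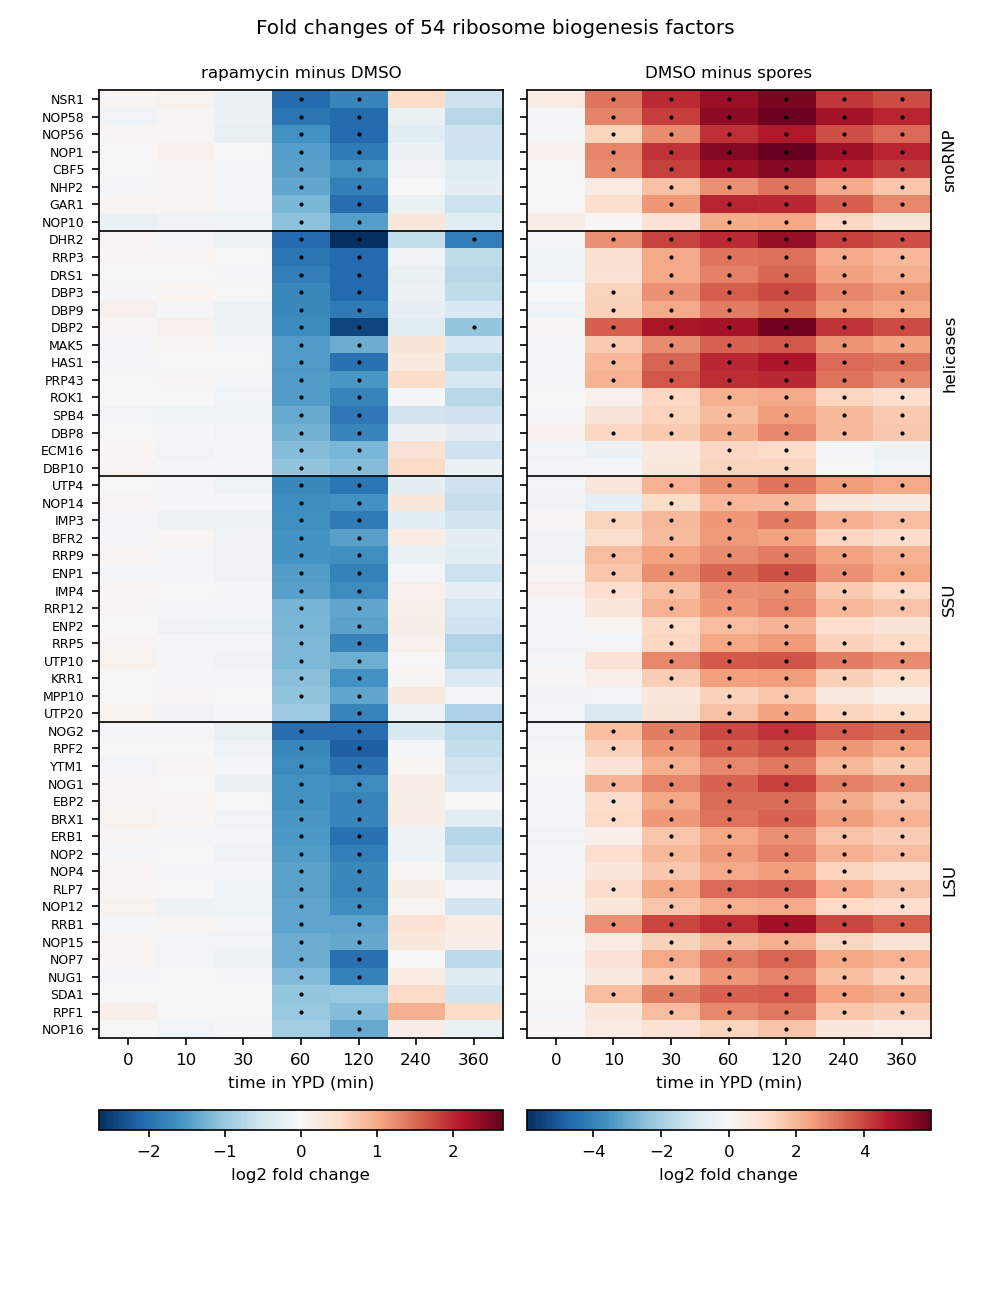
Log2 fold changes of the 54 members (rows, grouped by role and ordered by rapamycin minus DMSO at 60 min) by time in YPD (columns, min) for rapamycin minus DMSO on the left and DMSO minus spores on the right, each with its own colour scale; a dot marks a called change. The left panel is close to 0 up to 30 min, negative at 60 and 120 min in all 54 rows, near 0 at 240 min and marked for DHR2 and DBP2 only at 360 min.

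The medians of the 4 role groups lay close together. At 60 min the median log2 fold change of rapamycin minus DMSO was -1.45 for the snoRNP genes (8 of 8 fell), -1.51 for the helicases (14 of 14), -1.34 for the small subunit factors (13 of 14) and -1.41 for the large subunit factors (17 of 18). Values over all members ran from -2.07 to -0.93. The members just outside the 2-fold limit were UTP20 at -0.97 ± 0.18 (adjusted p = 0.00218) and NOP16 at -0.93 ± 0.13 (adjusted p = 0.000616), and the member just inside it was RPF1 at -1.01. At 120 min the exception was SDA1 (YGR245C), a factor of large subunit export, at -0.998, just under 2-fold.

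Within the snoRNP group NSR1 and NOP58 fell the most. NSR1 had 455, 785.4 and 390.1 CPM in rapamycin at 60 min, against 2171, 2338 and 2335 CPM in DMSO, a log2 fold change of -2.07 ± 0.26 (adjusted p = 0.000447). NOP58 had 246.2, 374.4 and 183.8 CPM in rapamycin at 60 min, against 1037, 1003 and 1045 CPM in DMSO, and fell by 1.94 ± 0.24 (adjusted p = 0.000438). In both genes replicate B was the highest and replicate C the lowest of the rapamycin libraries, with a spread far wider than in DMSO. NOP1 had 589, 952.4 and 451.3 CPM in rapamycin at 60 min, against 1859, 1824 and 1824 CPM in DMSO, and fell by 1.47 ± 0.26 (adjusted p = 0.00153). GAR1 had 466.7, 664 and 392.2 CPM in rapamycin, against 1158, 1136 and 1240 CPM in DMSO, and NOP10 had 176.4, 203.9 and 178.6 CPM in rapamycin, against 393.9, 356 and 438.2 CPM in DMSO. NOP10 changed least of the group, by -1.09 ± 0.11, and GAR1 by -1.21 ± 0.20. Both calls were lost with library size alone, at -0.77 for NOP10 and -0.90 for GAR1.

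Among the helicases DHR2 and RRP3, which both act on the small subunit precursor, fell the most. DHR2 had 38.3, 57.6 and 26.9 CPM in rapamycin at 60 min, against 161, 183.9 and 170.1 CPM in DMSO, a log2 fold change of -2.07 ± 0.24 (adjusted p = 0.000364). RRP3 had 85.3, 144.4 and 67.0 CPM in rapamycin at 60 min, against 361.4, 390.4 and 387.1 CPM in DMSO, and fell by 1.94 ± 0.25. Every rapamycin library of both genes lay under the lowest DMSO library by more than the range of its own group. DBP10 changed least of the helicases, with 488.1, 604.8 and 380.6 CPM in rapamycin, against 1051, 1030 and 973.7 CPM in DMSO, a change of -1.05 ± 0.17 (adjusted p = 0.00118). ECM16 had 349.8, 485.7 and 279.5 CPM in rapamycin, against 842.8, 854.9 and 771.1 CPM in DMSO, a change of -1.15 ± 0.20. The calls of DBP10 and ECM16 were lost with library size alone (-0.74 and -0.84) and without replicate C of rapamycin at 60 min (-0.89 and -0.97).

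Of the small subunit factors, UTP4, a processome subunit that joins early on the precursor, and NOP14 fell the most. UTP4 had 132.3, 196.2 and 99.7 CPM in rapamycin at 60 min, against 492.5, 454.8 and 452.1 CPM in DMSO, and fell by 1.71 ± 0.22 (adjusted p = 0.000481). NOP14 had 216.2, 309.7 and 151.5 CPM in rapamycin, against 749.6, 716.2 and 663.1 CPM in DMSO, and fell by 1.65 ± 0.23. UTP20 had 399, 456.2 and 292 CPM in rapamycin, against 861.6, 694 and 688.9 CPM in DMSO. Its libraries do not overlap, but replicate A of DMSO stands above the other two and the change stayed under 2-fold. It passed 2-fold without replicate B of rapamycin (-1.11) and without replicate B or replicate C of DMSO (-1.02 each).

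Of the large subunit factors, the GTPase NOG2 and RPF2 (YKR081C), which helps bring the smallest ribosomal RNA into the particle, fell the most. NOG2 had 145.7, 214.3 and 125.4 CPM in rapamycin at 60 min, against 660.9, 622.9 and 691.3 CPM in DMSO, and fell by 2.02 ± 0.20 (adjusted p = 0.000247). RPF2 had 164.8, 249.9 and 134.8 CPM in rapamycin, against 602.8, 594.4 and 611.5 CPM in DMSO, and fell by 1.72 ± 0.21. The rapamycin libraries of these genes again have replicate B highest and replicate C lowest. NOP16 had 187.9, 245.5 and 183.9 CPM in rapamycin, against 412.6, 383.1 and 379.6 CPM in DMSO, and passed 2-fold without replicate B of rapamycin (-1.07).

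The members not yet given all fell at 60 min, by values between those of the genes above, and those named here were picked for their known roles after the values had been seen. Of the snoRNP genes, NOP56, the partner of NOP58, fell by 1.61 in rapamycin against DMSO at 60 min, the pseudouridine synthase CBF5 by 1.44 and NHP2, a further box H/ACA protein, by 1.39. The other 10 helicases fell by between 1.83 (DRS1, of the large subunit pathway) and 1.26 (DBP8, of the small subunit pathway), among them HAS1, which acts in both pathways, by 1.51, and PRP43, which also acts in splicing, by 1.49. The other 11 small subunit factors fell by between 1.62 (IMP3) and 1.06 (MPP10), and both of these belong to a complex with IMP4, which fell by 1.45. RRP9, a protein of the U3 snoRNP, fell by 1.57, and RRP5, which serves both subunits, by 1.20. The other 15 large subunit factors fell by between 1.68 (YTM1) and 1.01 (RPF1). YTM1 forms a complex with ERB1, which fell by 1.53, and NOP7, which fell by 1.31. The GTPases NOG1 and NUG1 fell by 1.62 and 1.17, the RNA methyltransferase NOP2 by 1.48 and RLP7, a relative of a ribosomal protein, by 1.41.

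**Figure D4:**
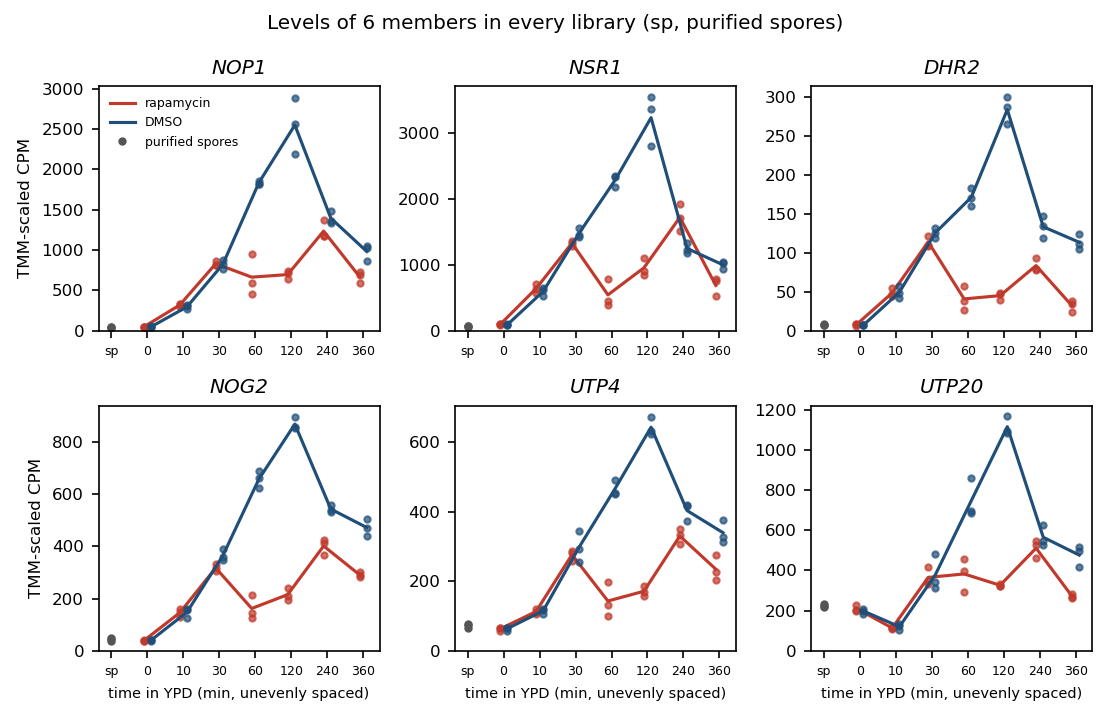
TMM-scaled CPM of NOP1, NSR1, DHR2, NOG2, UTP4 and UTP20 (vertical axes) by time in YPD (horizontal axes, min, unevenly spaced; sp, purified spores), with 1 point per library and lines through the means of rapamycin (red) and DMSO (blue). In each panel the DMSO mean is highest at 120 min, while the rapamycin mean is highest at 240 min or, for DHR2, at 30 min.

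The spread of the rapamycin libraries at 60 min was common to the set. Replicate B held 2.21% of its reads in the members and replicate C 1.32%, so that 44 to 54 members were called when 1 library was left out. At this time same-lettered libraries deviated together for A and C (correlation of 0.347 and 0.26) but not for B (0.0224). A fit with the letter as a block called 52.

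Whether the effect of rapamycin itself changed between times was tested as an interaction. From 30 to 60 min 51 members had a lower rapamycin effect by at least 2-fold (7.96% of all genes) and 0 a higher one (9.71%), with a median of -1.42. DHR2 had an interaction of -1.94 ± 0.26 (adjusted p = 0.000144), the lowest of the members. NOP10 (-0.99), UTP20 (-0.93) and NOP16 (-0.90) were not called, although their adjusted p was under 0.05. Scaled by library size alone, 33 members were called, and without replicate C of rapamycin at 60 min 40.

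DHR2 had the lowest value of the members in rapamycin against DMSO at each of the 3 later times. At 120 min it had 39.5, 47.4 and 48.7 CPM in rapamycin, against 265.4, 300.1 and 287.7 CPM in DMSO, a log2 fold change of -2.66 ± 0.09 (adjusted p = 2.14e-09). Next was DBP2 (YNL112W), a DEAD-box helicase that also acts in messenger RNA turnover, at -2.45. At 360 min DHR2 had 23.7, 33.9 and 38.4 CPM in rapamycin, against 105.6, 111.3 and 124.5 CPM in DMSO, and fell by 1.84 ± 0.18 (adjusted p = 0.000247). At that time DHR2 in rapamycin was still above its level in purified spores, by 1.98 ± 0.22. The paper states that its choice of genes to follow, DHR2 among them, also drew on its transcriptomes of germinating spores. The rank of DHR2 among the members is therefore not independent of that choice.

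At 240 min 0 members were called in either direction by edgeR (7.68% of all genes called lower and 14.1% higher) or by DESeq2. At an unadjusted p under 0.05 by edgeR there were 25 members, against 75% of all genes. The median log2 fold change was 0.04, and changes under 2-fold with an adjusted p under 0.05 went both ways, 8 lower and 13 higher, which is fewer of the members than of all genes by that rule without a minimum change (36.3% lower and 37.1% higher). Scaled by library size alone, this split was 3 lower and 33 higher, with 1 member called. The lowest was DHR2, with 79.9, 93.4 and 78.1 CPM in rapamycin, against 134.9, 147.4 and 118.7 CPM in DMSO, at -0.66 ± 0.09. The highest was RPF1 (YHR088W), a large subunit factor, with 307.9, 292.8 and 272.1 CPM in rapamycin, against 148.8, 170.8 and 139.7 CPM in DMSO, at 0.95. NSR1, which stood level with DHR2 as the lowest at 60 min, stood at 0.48 ± 0.10 at 240 min.

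At 360 min 2 members fell, DHR2 and DBP2, both helicases, against 5.3% of all genes, and 0 rose (10.4% of all genes). The members' median was -0.52 against 0.05 for all genes, and 32 members had an adjusted p under 0.05 with lower levels in rapamycin (18.5% of all genes) and 0 with higher levels (24.1%). Without replicate A of rapamycin, 1 member fell by at least 2-fold, DHR2 at -1.67, while 47 were lower and 1 higher at an adjusted p under 0.05 (29.6% and 32.7% of all genes), with a median of -0.49. DBP2 had 180.7, 353 and 363.2 CPM in rapamycin, against 598.8, 599.6 and 610 CPM in DMSO, a log2 fold change of -1.03 ± 0.25 (adjusted p = 0.0146). Replicate A of rapamycin lies far under the other libraries, and without it the change was -0.76. The call was also lost with library size alone (-0.97) and, at nearly the same change of -1.03 and -1.01, without replicate B or replicate C of DMSO (adjusted p = 0.0507 and 0.0552 by edgeR).

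Markers of cell state were summed in the same libraries. In purified spores the 12 dividing-cell genes summed to between 410 and 445 CPM. That is above their sums in both cultures from 10 min on, except DMSO at 360 min, so the sum is not a measure of division alone. At 360 min the 12 dividing-cell genes summed to between 149 and 200 CPM in rapamycin, against 1650 to 1940 CPM in DMSO, and the 13 late sporulation genes to between 85.1 and 140 CPM, against 54.5 to 62.8 CPM. At 240 min the dividing-cell genes summed to between 83.9 and 91.4 CPM in rapamycin, against 164 to 225 CPM in DMSO, and the sporulation genes to between 172 and 282 CPM, against 61.4 to 64.4 CPM. At 120 min the sporulation genes summed to between 366 and 819 CPM in rapamycin, against 166 to 258 CPM in DMSO. The dividing-cell genes then summed to between 117 and 123 CPM in rapamycin, against 98.4 to 105 CPM in DMSO. Gene by gene, of 12 sporulation genes tested at 120 min, 2 were called higher in rapamycin (21.3% of all genes) and 2 lower (15.6%). Their median log2 fold change was -0.15. At 240 min 6 of 10 were called higher (14.1%) and 1 lower (7.68%). At 360 min 2 of 10 were called higher (10.4%) and 0 lower (5.3%). Of 12 dividing-cell genes, 6 were called lower at 240 min and 12 at 360 min, with 0 higher. At 60 min the sums were close, with 150 to 155 CPM for dividing-cell genes in rapamycin, against 124 to 146 CPM in DMSO, and 814 to 1330 CPM for sporulation genes, against 977 to 1400 CPM. Their part in the result was not tested.

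The time of the highest level differed between the cultures. In rapamycin the mean CPM was highest at 240 min for 40 members and at 30 min for 14, and in DMSO it was highest at 120 min for 49 and at 60 min for 5. The highest mean was 1.42 to 29.9 times the mean of spores in rapamycin, with a median of 4.75, and 2.3 to 61.6 times in DMSO, with a median of 8.95. In both cultures ECM16 had the smallest ratio and NOP1 the largest. The libraries at the highest time overlapped those at the next highest for 25 members in rapamycin and 18 in DMSO, so the time itself is uncertain for these. Under library size alone the time in rapamycin was 30 min for 41 members and 240 min for 12, and the time in DMSO was 120 min for 34 and 60 min for 19.

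Within each culture, levels at 360 min were set against those at 60 min. In rapamycin 0 members were called in either direction by edgeR (13% of all genes called lower and 13.2% higher) or by DESeq2, with a median of -0.09. At an unadjusted p under 0.05 by edgeR there were 13 members, against 58.3% of all genes. With no minimum change, 6 members were lower (25.9% of all genes) and 5 higher (26%) at an adjusted p under 0.05, or 9 and 1 with library size alone, where 2 of the 9 passed 2-fold. Without replicate A of rapamycin at 360 min these counts were 6 and 2, and 0 members were called. In DMSO 25 members fell (17.3% of all genes) and 0 rose (20.9%), with a median of -0.93, and all 54 were lower with an adjusted p under 0.05 (39.6% of all genes). NOG2 stood at 0.84 ± 0.21 in rapamycin, against -0.38 ± 0.10 in DMSO, and GAR1 at -0.99 ± 0.23 in rapamycin, against -1.53 ± 0.11 in DMSO. UTP4 stood at 0.71 ± 0.26 in rapamycin, against -0.36 ± 0.10 in DMSO. In rapamycin the adjusted p by edgeR was 0.011 for NOG2, 0.00833 for GAR1 and 0.0468 for UTP4. These rapamycin values include replicate A at 360 min, and none was a called change.

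The interaction of 360 against 60 min was higher by at least 2-fold for 25 members (10.9% of all genes) and lower for 0 (12.2%), with a median of 0.99. The largest were those of EBP2 (YKL172W; 1.54) and RRB1 (YMR131C; 1.53), a large subunit factor and a chaperone of a large subunit protein. For DHR2 the interaction was 0.16 ± 0.32 (adjusted p = 0.705), and for UTP20 it was 0.08. The count was 12 with library size alone and 12 to 36 when 1 library was left out, with 12 without replicate C and 36 without replicate B of rapamycin at 60 min, and 23 without replicate A of rapamycin at 360 min.

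Other genes of the pathway, 93 on a list that shares no gene with the 54, were counted in the same fits. At 60 min 86 of the 93 fell in rapamycin against DMSO (8.82% of all genes), with a median of -1.39, and at 120 min 90 fell (15.6%). At 240 min 0 of them were called lower (7.68% of all genes) and 0 higher (14.1%), and at 360 min 3 fell (5.3%). In DMSO against spores 41 rose at 10 min (15.4% of all genes) and 1 fell (7.37%). At the next times 84 rose at 30 min (24.3%), 91 at 60 min (28.5%) and 92 at 120 min (31%).

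Of 10 genes that regulate the pathway, only TOD6 was called between rapamycin and DMSO at 60 min. Changes under 2-fold with an adjusted p under 0.05 were those of IFH1 (-0.94 ± 0.13), SCH9 (-0.52), FHL1 (-0.34) and TOR1 (0.46). By that rule without a minimum change, 29.2% of all genes were lower. TOD6 encodes one of the repressors that bind PAC, and had 215.9, 324.4 and 167.9 CPM in rapamycin at 60 min, against 831.5, 751.8 and 742.6 CPM in DMSO and 161.8, 148.3 and 171.5 CPM in purified spores. It fell by 1.71 ± 0.22 in rapamycin against DMSO (adjusted p = 0.000498) and rose by 2.28 ± 0.10 in DMSO against spores. Its paralogue DOT6 stood at 0.00 ± 0.10 in rapamycin against DMSO at 60 min and was higher in rapamycin at 240 min, by 1.90 ± 0.09, with -1.18 for DMSO against spores. CRF1, known as a corepressor of ribosomal protein genes, was higher in rapamycin than in DMSO at 120 min by 1.91 ± 0.18 and at 240 min by 2.98 ± 0.11. STB3, which binds RRPE, was also higher in rapamycin than in DMSO at 240 min by 1.15 ± 0.08. CRF1 and STB3 were below purified spores in both cultures at 240 min, CRF1 by a log2 fold change of -1.71 in rapamycin and -4.75 in DMSO, and STB3 by -1.20 in rapamycin and -2.40 in DMSO. The activator SFP1 fell in DMSO against spores at 60 min by 1.11 ± 0.10, and the coactivator IFH1 rose by 1.33 ± 0.10.

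Finally, the members were set beside the promoter matches shown above, a comparison chosen after the values were seen. The median log2 fold change of rapamycin minus DMSO at 60 min was -1.48 in the 35 members with the longer PAC form and -1.44 in the 19 without it. It was -1.55 in the 27 members with the longer RRPE form and -1.39 in the 27 without, but -1.46 in the 45 with the RRPE core and -1.51 in the 9 without. In DMSO minus spores at 60 min the medians were 3.19 with the longer RRPE form and 2.75 without it, 2.99 with the RRPE core and 2.60 without it, and 2.88 with the longer PAC form and 3.07 without it. DHR2, with PAC and no RRPE match, and NSR1, with both, both stood at -2.07 in rapamycin minus DMSO at 60 min.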

How the data were processed

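Poly-A RNA was made into strand-specific libraries. By the study's methods, after trimming with Trimmomatic 0.33 the authors mapped the reads to the SK1 genome by hisat2, tallied the reads of each gene by HTSeq (union mode, stranded), and deposited these raw read counts of 45 libraries, not normalized. The submitters' processing notes name Trimmomatic 0.33 and HTSeq but list a human genome build, and the series' design text names other aligners and another sequencer, a conflict that was not settled. Reads of genes that differ between SK1 and the annotated reference can be lost.

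Fits used edgeR 4.0.16 with limma 3.58.1 (R 4.3.3), each on only the 6 libraries compared (12 for an interaction), with TMM scaling, genes above 1 CPM in at least 3 libraries, glmQLFit and glmQLFTest, and Benjamini-Hochberg adjustment over all genes tested. A standard error is the size of the log2 fold change divided by the square root of F. Exact permutation of 3 libraries against 3 has a smallest two-sided p of 0.1, and was not used. Printed CPM are TMM-scaled over all 45 libraries, so their ratios differ slightly from the fitted changes. Levels per kilobase use the RefSeq coding length. Alternatives were DESeq2 1.42.0, other scalings, no filter, no minimum change, a replicate block and leaving out each library. Scripts were tested on simulated data.

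Values are given in full for DHR2, for the 2 lowest and the 1 highest change of each role group (rapamycin minus DMSO, 60 min), for the 3 largest and 3 smallest changes of DMSO minus spores at 60 min, and for the 3 highest levels per kilobase; DBP2, RPF1, SDA1, EBP2 and RRB1 were added after their values were seen. The members and lists were chosen with earlier results of these data known. Same-lettered libraries deviated together (correlation above 0.1 for all 3 letters) in rapamycin against DMSO at 0, 10, 30 and 120 min, in rapamycin against spores up to 120 min and in DMSO against spores up to 30 min. No replicates were duplicates (chi-square per degree of freedom of 5.39 to 185).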

Additional observations from a re-analysis of the deposited data

Results flagged for a closer look

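The effect of rapamycin on the members differed between times by a test of the difference itself. It was lower at 60 than at 30 min for 51 of the 54 members (7.96% of all genes). It was higher at 360 than at 60 min for 25 (10.9% of all genes). Both counts are by edgeR's interaction test with an adjusted p under 0.05 and a difference of at least 2-fold. Scaled by library size alone they were 33 and 12, and leaving out 1 library gave 40 to 54 and 12 to 36.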

How the results depend on the processing

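With library size alone in place of TMM, the members called were 1 higher at 240 min and 1 lower at 360 min in rapamycin against DMSO, 38 in DMSO against spores at 10 min, 2 lower at 360 against 60 min in rapamycin, 33 for the interaction of 60 against 30 min and 12 for that of 360 against 60 min. Under that scaling 19 members had their highest mean in DMSO at 60 min, and in rapamycin 12 had it at 240 min and 41 at 30 min. With no minimum change, the counts were 8 lower and 13 higher at 240 min and 32 lower at 360 min in rapamycin against DMSO, 46 in rapamycin and 47 in DMSO against spores at 10 min, 6 lower in rapamycin and 54 in DMSO at 360 against 60 min, and 41 for the later interaction. Leaving out 1 library gave 0 to 1 higher at 240 min and 1 to 2 lower at 360 min (rapamycin against DMSO), 0 to 2 lower in rapamycin at 360 against 60 min and 12 to 36 for the later interaction. The replicate block gave 52 at 60 min and 53 at 120 min in rapamycin against DMSO, and 51 and 26 for the interactions, and changed no count by more than 1.5 times. DESeq2 gave 52, 54 and 2 at 60, 120 and 360 min. Of 369 values for single genes under the alternatives, 355 kept their call, 10 lost it, 4 gained it and 0 reversed. The lowest count of a member was 61, and the effect of depth was not tested. Members by adjusted p without replicate A of rapamycin at 360 min were counted after seeing the data.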

Other observations

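Members with a long coding sequence differed from short ones at 0 min. Across the 54 members, Spearman's correlation of coding length with the log2 fold change of rapamycin over spores at 0 min was -0.58, and that of DMSO over spores was -0.64. Over all genes tested the values were -0.50 and -0.58, and the 3 spore libraries are shared by both. From 10 to 360 min the members' values against spores lay between -0.22 and -0.10 in rapamycin and between -0.20 and -0.07 in DMSO. For rapamycin minus DMSO at 360 min the value was -0.42 over the members and -0.06 over all genes. It includes replicate A of rapamycin, which stands apart, and was not computed without that library. These correlations are a description across genes, which are not independent replicates, and were computed after the data had been seen.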
